A study of Drosophila melanogaster with 3 samples.

Results

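The chemosensory receptor genes of Drosophila melanogaster were taken as the protein-coding genes whose symbol is Or, Gr or Ir followed by a number and a letter. The rule found 179 of 13946 protein-coding genes on the main chromosomes of the dm6 assembly: 59 odorant receptor (Or) genes, 60 gustatory receptor (Gr) genes and 60 ionotropic receptor (Ir) genes. They lie on 2L (31 genes), 2R (46), 3L (35), 3R (42) and X (25). Their binding data are 3 CUT&Tag libraries of larval wing discs, all of 1 group, named here BunA-HA wing disc. Its genotype is nub>GFP;UAS-BunA-HA at the third larval instar, so the HA-tagged BunA isoform of bunched and GFP were both driven ectopically by nub-Gal4, which is active in the wing pouch, and an anti-HA antibody marked the DNA. Replicates 1, 2 and 3 carry the numbers 2, 3 and 4 in their titles, and nothing says that they came from separate larvae, so the spread over replicates could be technical alone. A control library lacking BunA-HA was not analysed here, so signal of the tagged protein and signal of open chromatin cannot be told apart.

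Or, Gr and Ir proteins are the receptors of smell and taste in insects. An Or protein forms an ion channel with the co-receptor Orco in olfactory neurons. Gr proteins detect sugars, bitter compounds and carbon dioxide, and Ir proteins, relatives of glutamate receptors, work with co-receptors such as Ir25a, Ir8a and Ir76b in smell, taste, temperature and humidity sensing. Each gene is usually active in a small set of sensory neurons of the antenna, mouthparts, legs or wing margin, and the taste bristles of the adult wing margin descend from cells of the wing disc.

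The libraries held 9268, 9005 and 9225 peaks in replicates 1, 2 and 3, with a median fold enrichment of 6.61, 7.15 and 6.98. Fold enrichment is the authors' value for each peak, the linear ratio of signal at its summit over the background estimated by the peak caller. Read counts are not part of the lists, so the depth is unknown. Overlapping peaks were merged, and 5768 of 10871 regions held a peak of all 3 libraries. The word bound is used for a gene when such a region overlaps a window of 1000 bp on either side of its start or end, and refers to peaks alone. Strand was not used, so the 2 ends of a gene are not told apart. Of 8 genes listed as markers of the wing pouch (nub, vg, sd, rn, Dll, ap, wg and ct), 8 were bound, where the share of all protein-coding genes was 20.6%. The list was chosen with earlier results of these data known, so the count is no independent check of the tissue. Of these markers 7 are genes of 10000 bp or more, a class in which 41.9% of all protein-coding genes were bound.

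Few chemosensory receptor genes had a peak near them, and those that did were mostly Ir genes. Of 179 receptor genes, 10 (5.59%) were bound, where the share of all protein-coding genes was 20.6%. The bound genes were Ir48c, Ir52a, Ir60b, Ir68a, Ir68b, Ir85a and Ir94d among 60 Ir genes (11.7%), Or9a and Or67a among 59 Or genes (3.39%), and Gr39a alone among 60 Gr genes (1.67%). In 6 of the 7 bound Ir genes, 1 of the 2 Or genes and the 1 Gr gene, the strongest region was nearer to or inside another gene. Of all bound protein-coding genes this held for 48.4%. With regions of 2 or more libraries 14 receptor genes (7.82%) were reached, where the share of all protein-coding genes was 25.9%, and with a peak of any library 20 (11.2%), where it was 33.3%. The other 159 had no peak of any library within 1000 bp of a boundary. No test was made of the difference between receptor genes and other genes or between the 3 families.

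Single libraries gave similar counts. Receptor genes with a peak at a boundary numbered 14, 15 and 14 in replicates 1, 2 and 3, which is 8.01% ± 0.323 (SD, n = 3), against 26.8% ± 1.06 of all protein-coding genes (25.6%, 27.4% and 27.4% in replicates 1, 2 and 3). The Ir genes numbered 10, 9 and 7, the Or genes 3, 4 and 4, and the Gr genes 1, 2 and 3. The Ir count was the highest of the 3 families in each library. All libraries were counted over the same genes, so their spread does not measure a difference between families. With windows of 500 bp, 2 Ir, 1 Or and 0 Gr genes were bound, where the share of all protein-coding genes was 16%.

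**Figure D1:**
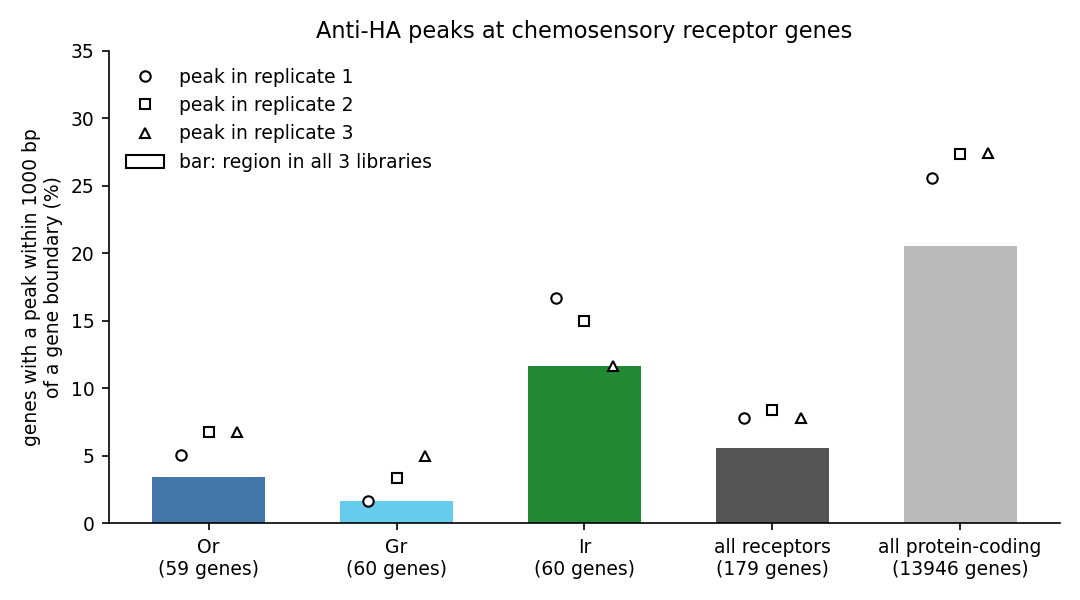
Share of genes with a peak within 1000 bp of a gene boundary (y axis, percent) for the Or, Gr and Ir families, all receptor genes and all protein-coding genes (x axis). Bars give genes with a region of all 3 libraries and symbols give single libraries; the bar of all receptor genes stands at 5.59% and that of all protein-coding genes at 20.6%.

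Receptor genes are short, and among all protein-coding genes the bound share was lower in shorter length classes. Their median length was 1691 bp, against 2161 bp for all protein-coding genes, and by family it was 1462 bp (Or), 1397 bp (Gr) and 1908 bp (Ir). Below 1500 bp, 1 of 72 receptor genes was bound (1.39%), against 536 of 4799 protein-coding genes (11.2%). From 1500 to below 3000 bp, 7 of 85 receptor genes (8.24%) were bound, against 14.4% of protein-coding genes, and from 3000 to below 10000 bp 2 of 20 (10%), against 28.5%. The 2 receptor genes of 10000 bp or more were not bound, against 41.9% of protein-coding genes bound in that class. The receptor share was the lower of both in each length class, but the longest class, with 2 receptor genes, says little.

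Or67a, an odorant receptor gene of adult antennal neurons at 9529067 to 9531386 on 3L, had the region closest to its own boundary. The region, at 9528931 to 9529166, was centred 21 bp outside the gene and overlapped its end. Its fold enrichment was 5.48, 6.21 and 8.18 in replicates 1, 2 and 3, 6.63 ± 1.39 (SD, n = 3). Replicate 3 was above the median peak of its library, and replicates 1 and 2 were below theirs. The nearest other gene, CG33700, had its boundary 3502 bp away, so no neighbour lay within 1000 bp.

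Ir52a, of a group of Ir genes active in taste organs, was the other bound receptor gene with no competing neighbour. It lies at 15499632 to 15501431 on 2R, and its region, at 15498615 to 15498810, was centred 895 bp outside it and 1506 bp from CG12964. The fold was 7.38, 6.33 and 7.67 in replicates 1, 2 and 3 (7.12 ± 0.705; SD, n = 3). Ir52b, Ir52c and Ir52d, which follow Ir52a in the same array, had no peak of any library at a boundary.

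At Gr39a, Ir48c and Ir85a the receptor boundary was the nearest one, but the receptor gene itself sits inside a larger gene that also holds the region. Gr39a, a taste receptor locus with several isoforms at 21290734 to 21297686 on 2L, lies within Mondo, which encodes a sugar-responsive transcription factor. Its region, at 21296604 to 21296786, was centred 1000 bp inside Gr39a and 10608 bp from the nearest end of Mondo, with folds of 4.99, 6.21 and 6.13 (5.78 ± 0.686; SD, n = 3). Each of these folds was below the median peak of its library. With only peaks of a −log10 q-value of at least 5 the Gr39a call ended, its peak in replicate 1 having 4.76, and 0 Gr genes were bound.

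Ir48c, at 11787808 to 11789493 on 2R, lies within ths, which encodes an FGF ligand. The region at 11789943 to 11790239, centred 520 bp outside Ir48c, had folds of 7.98, 9.32 and 7.67 in replicates 1, 2 and 3 (8.32 ± 0.877; SD, n = 3), above the median peak in each library. The nearest boundary of another gene, CG42493, was 10778 bp away.

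Ir85a, at 8794684 to 8796966 on 3R, lies within both Pif1A and Pif1B. Its region, at 8793965 to 8794080 and centred 688 bp outside it, had folds of 5.98, 5.55 and 5.65 (5.72 ± 0.227; SD, n = 3), the lowest mean of the receptor regions. A pair of further regions of all 3 libraries lay 1589 and 2047 bp from Ir85a, again inside the Pif1 genes, with mean folds of 5.97 ± 0.134 and 9.01 ± 1.88. All 3 regions were nearer to Ir85a than to any other boundary, the nearest end of Pif1A being 7180 bp or more away.

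The highest fold beside a receptor gene stood at Ir68b, and there the neighbour yps, which encodes a Y-box RNA-binding protein, was nearer. Ir68b lies at 12125487 to 12127394 on 3L. The strong region, at 12124179 to 12124511, had folds of 16.0, 19.9 and 20.2 in replicates 1, 2 and 3 (18.7 ± 2.37; SD, n = 3), which placed it at the 97.3 percentile of its libraries' peaks on average. Its centre was inside yps, 854 bp from the end of yps and 1191 bp from Ir68b, and only its edge reached the window of Ir68b. A second region, at 12125111 to 12125240, had its centre in the gap between both genes, 32 bp from the end of yps, which its edge overlapped, and 305 bp from Ir68b, with folds of 7.44, 4.94 and 6.46 (6.28 ± 1.26).

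Ir60b, active in pharyngeal taste neurons, had a region that lay inside Letm1, a gene for a mitochondrial inner membrane protein. Ir60b spans 24515685 to 24517458 on 2R, and the region, at 24514983 to 24515105, was centred 298 bp inside the end of Letm1 and 663 bp from Ir60b. Its folds of 13.0, 14.0 and 10.3 in replicates 1, 2 and 3 (12.4 ± 1.94; SD, n = 3) were all above the median peak. A weaker region, centred between the genes, 31 bp from the end of Letm1, which its edge overlapped, and 334 bp from Ir60b, had peaks of replicates 1 and 2 only (5.48 and 6.30).

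Or9a, an odorant receptor gene of the adult antenna at 10458186 to 10459676 on X, shared its region with Neb-cGP. The region, at 10460609 to 10460785, was centred 40 bp from Neb-cGP and 1020 bp from Or9a. It had folds of 10.5, 8.80 and 9.71 in replicates 1, 2 and 3 (9.66 ± 0.837; SD, n = 3), above the median peak in each library.

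The remaining bound genes, Ir68a and Ir94d, also had a nearer neighbour. Ir68a, needed for sensing moist air, lies at 11232972 to 11236218 on 3L. Its region, at 11236929 to 11237198, was 221 bp from lncRNA:CR44719, inside lncRNA:CR44718 and 863 bp from Ir68a, with folds of 5.48, 5.18 and 7.16 (5.94 ± 1.07; SD, n = 3). The region of Ir94d, a gene of the Ir94 group at 23402808 to 23405139 on 3R, lay at 23401659 to 23401886, 856 bp from CG17380 and 1056 bp from Ir94d. Its folds of 9.88 and 10.4 in replicates 1 and 2 were well above the 5.62 of replicate 3 (8.62 ± 2.60).

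**Figure D2:**
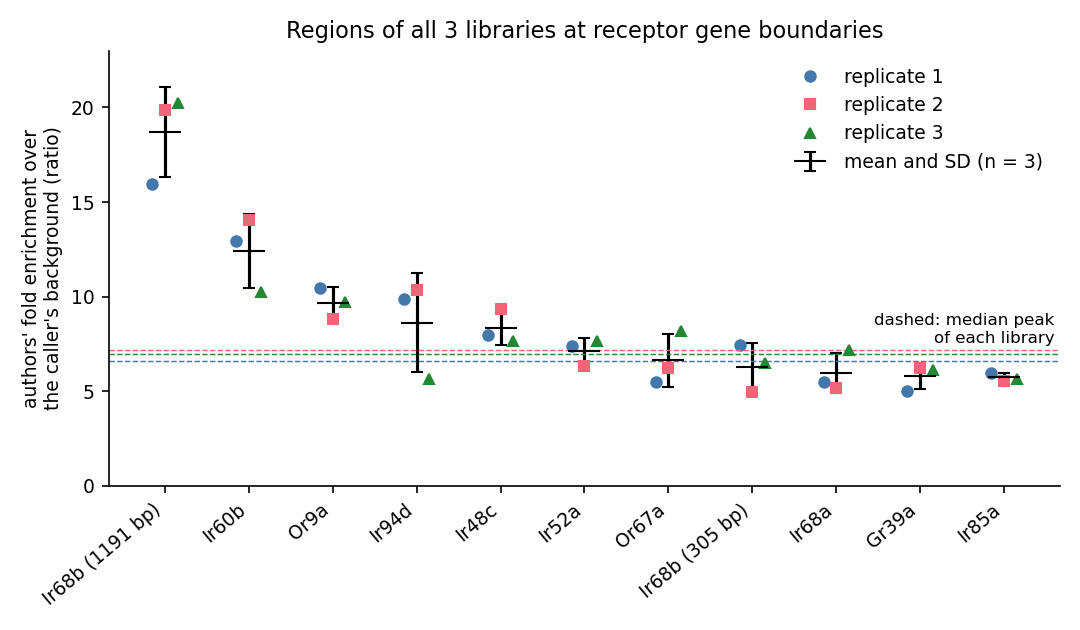
Authors' fold enrichment (y axis, ratio) in each library for the 11 regions of all 3 libraries at receptor gene boundaries (x axis, ordered by mean), with the mean and SD over libraries as black bars and the median peak of each library as dashed lines. Distances in brackets tell the 2 regions of Ir68b apart; the region farther from Ir68b averaged 18.7 and the region of Ir85a 5.72.

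As a set, the 11 receptor regions were of middling strength. Their mean folds had a median of 7.12 (range 5.72 to 18.7), against 8.2 for all 5768 regions of all 3 libraries, and 5 of 11 were above that value. Their median width was 196 bp, against 237 bp for all such regions. By the strongest region of each gene, another gene's boundary was nearer in 5 of 10 bound receptor genes, against 39.3% of all 2868 bound protein-coding genes. The region's centre was inside another gene in 6 of 10, against 27.4%, and either held in 8 of 10, against 48.4%. Receptor regions also stood farther from the gene they were assigned to: the median distance from centre to boundary was 879 bp, against 344 bp for all bound protein-coding genes, and 1 of 10 centres was inside the assigned gene, against 26.2%.

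**Figure D3:**
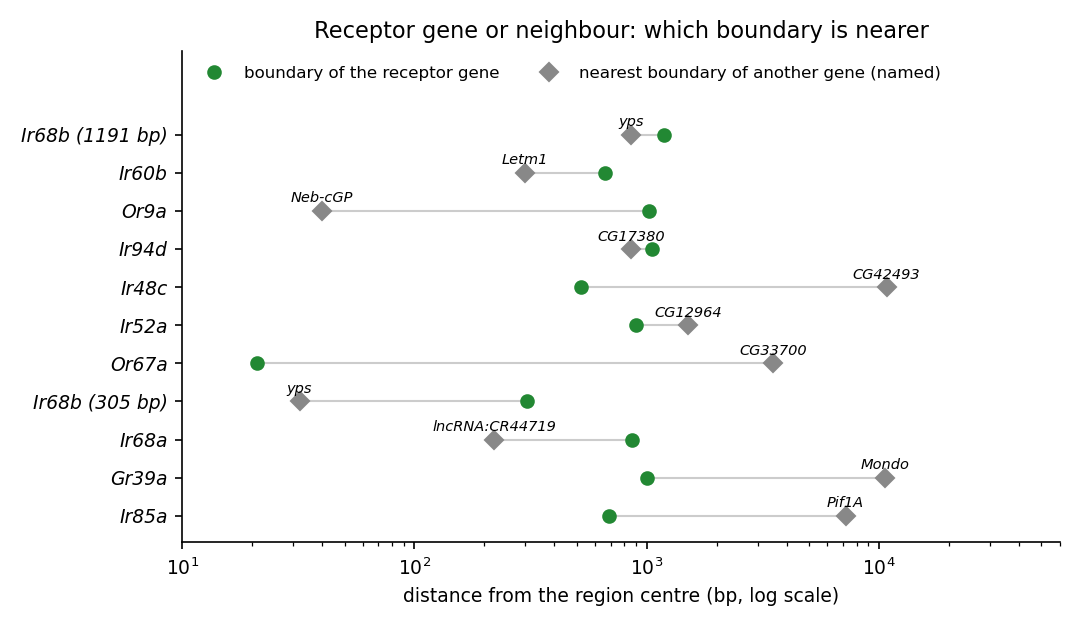
Distance from the centre of each receptor region to the boundary of the receptor gene (circles) and to the nearest boundary of another gene (diamonds, named), in bp on a log scale, in the order of the plot of folds. The neighbour is nearer in the rows of Ir68b, Ir60b, Or9a, Ir94d and Ir68a, and the circle of Or67a at 21 bp is the closest to any receptor gene.

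Several of these calls depended on the window of 1000 bp. Just inside it, the edges of the regions of Or9a, Ir94d and Ir52a stood 933, 922 and 822 bp from the gene, and just outside it was Gr47b, 1101 bp from a region with folds of 11.2, 11.8 and 11.3 (11.4 ± 0.346; SD, n = 3). With windows of 500 bp the bound receptor genes numbered 3 (Ir48c, Ir68b and Or67a), where 16% of all protein-coding genes were bound. With windows of 2000 bp they numbered 11 (6.15%), Gr47b being added, where the share of all protein-coding genes was 26.2%. With the region's centre required within 1000 bp they numbered 8 (4.47%), Or9a and Ir94d being lost, where that share was 19.7%.

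Receptor genes with peaks of only some libraries had another gene close by in most cases, and their 15 peaks had a median fold of 5.48 (range 3.49 to 9.84). Regions of 2 libraries lay at Or47a (folds of 9.84 and 8.18 in replicates 2 and 3), Or71a (4.99 and 7.25 in replicates 1 and 2), Gr98d (4.14 and 6.13 in replicates 2 and 3) and Ir31a (5.48 and 6.73 in replicates 1 and 2). Or47a and Or71a encode odorant receptors, Or71a of the maxillary palp. The region of Or47a was inside the cuticular protein gene Cpr47Ea, and that of Or71a inside Plp, a centrosomal gene that also contains Or71a. The region of Ir31a was 63 bp from Ip259 and 92 bp from Ir31a, and that of Gr98d 175 bp from Klp98A and 138 bp from Gr98d.

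A peak of 1 library lay at Or43b, Or47b, Ir21a, Ir60e and Ir94f, and 2 such peaks lay at Gr97a. Or47b, a pheromone receptor gene, had a peak of fold 3.49 in replicate 1 with no other gene within 1000 bp, the sha boundary being 2372 bp away. Ir94f had one of 5.48 in replicate 1, also with no neighbour within 1000 bp. The peak of Ir21a, a gene of cool sensing, had a fold of 4.66 in replicate 2 and was inside l(2)gl, a cell polarity gene. Those of Ir60e (3.99 in replicate 1) and Gr97a (7.16 for both, in replicate 3) were nearer to CG13585 and CG5521 than to the receptor gene. The peak of Or43b (5.11 in replicate 3) was inside Or43b itself, 418 bp from its end, with Kdm4A and Cul1 within 1000 bp.

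The interior of the longer receptor genes held no further region of all 3 libraries. A gene of up to 2000 bp is covered by the boundary windows whole, and 52 receptor genes (29.1%) are longer, against 53.1% of all protein-coding genes. Counting regions of all 3 libraries anywhere in the gene or its 1000 bp flanks added no receptor gene to the 10, where this wider rule took in 23.9% of all protein-coding genes. A region of all 3 libraries overlapped the gene itself in 2 of 179 receptor genes (1.12%), Or67a and Gr39a, against 16.1% of protein-coding genes. Deeper inside, Ir93a, a co-receptor gene of temperature and humidity sensing, had a region of replicates 2 and 3 (4.14 and 5.11). Ir41a, the longest receptor gene at 104437 bp, held 4 peaks, each of 1 library, with folds from 4.09 to 5.48.

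Most receptor genes were also far from any recurring region. The median gap between a receptor gene and the nearest region of all 3 libraries was 16250 bp, against 8185 bp for all protein-coding genes. By family it was 23401 bp for Or genes, 19556 bp for Gr genes and 11510 bp for Ir genes. The gap exceeded 10000 bp for 123 of 179 receptor genes (68.7%), against 44.8% of protein-coding genes, and 50000 bp for 29 (16.2%), against 7.04%. It was widest at Or23a, with 96783 bp, followed by Ir11a (92476 bp) and Gr92a (84911 bp).

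**Figure D4:**
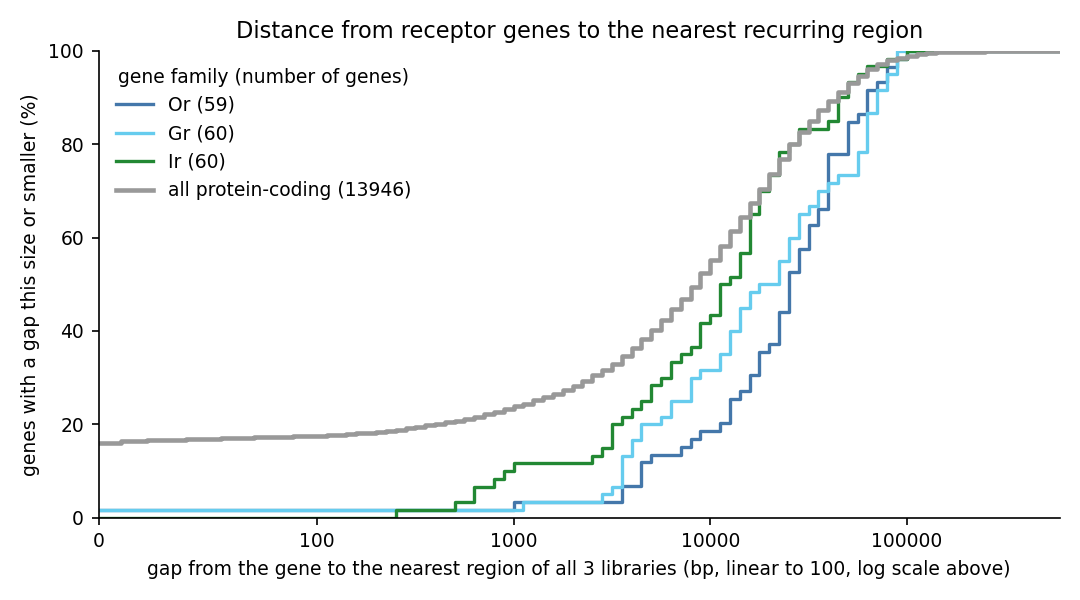
Share of genes (y axis, percent) whose gap to the nearest region of all 3 libraries is at most the distance on the x axis (bp, linear up to 100 and log above), for the Or, Gr and Ir families and all protein-coding genes. The family curves start near 0 and stay below the grey curve up to 10000 bp; the medians are 23401 bp (Or), 19556 bp (Gr), 11510 bp (Ir) and 8185 bp (all protein-coding genes).

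Of 28 receptor genes listed for a well known role, 0 were bound, where the share was 5.59% of all receptor genes and 20.6% of all protein-coding genes. The 28 include the 6 genes of the Gr64 array, some of which overlap. The list was drawn up with results of these data known and does not hold the bound genes Ir68a and Ir60b, whose roles are also described. The Ir co-receptor genes Ir25a, Ir8a and Ir76b were 8865, 14607 and 57195 bp from the nearest region of all 3 libraries. The carbon dioxide receptor genes Gr21a and Gr63a were 40134 and 3829 bp away, and in the case of Gr63a the region lay inside Ubi-p63E, a ubiquitin gene. The sugar receptor genes Gr5a and Gr43a were 8614 and 3411 bp away, and the bitter receptor genes Gr66a, Gr33a and Gr32a 53948, 24454 and 39098 bp. Of the odorant receptor genes, Or22a was 48301 bp, Or42b 14246 bp and Or67d, which detects a male pheromone, 50483 bp from such a region. Of the 28 genes, Ir21a and Or47b had the single-library peaks given above.

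Arrays of neighbouring receptor genes were mostly empty, and so were receptor genes standing alone and protein-coding genes at large. Receptor genes less than 10000 bp apart were joined, which gave 16 arrays of 3 or more genes with 58 members, of which 2 (3.45%) were bound, Ir52a and Ir60b. Another 12 pairs held 24 members, 1 of them bound (4.17%), and of 97 receptor genes standing alone 7 (7.22%) were bound. The share was 5.59% of all receptor genes and 20.6% of all protein-coding genes. No region of all 3 libraries lay within the span of 14 of 16 arrays of 3 or more genes, or of 95 of 97 genes standing alone. Such a region overlapped 16.1% of all protein-coding genes, so most single genes of any kind are empty by this count. For stretches as long as the arrays no such share is given. No peak of any library lay within the spans of the Gr64 array of sugar receptor genes (6 genes, 4026769 to 4037575 on 3L), the Ir7 array (6 genes, 7864948 to 7886976 on X) or the Gr22 array (5 genes, 1784062 to 1794917 on 2L). In the table used here Gr64b and Gr64c overlap, as do Gr64d and Gr64e, and Gr10a and Or10a, so these genes are not independent members.

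The Gr93 array, on 3R at 21832503 to 21846659, held 3 regions of all 3 libraries between Gr93a and Gr93b, and among the arrays of 3 or more genes the only other one with such a region was that of Ir60b, Ir60d and Ir60e. The region in the Ir60 array, at 24526100 to 24526217 on 2R (8.34 ± 2.21; SD, n = 3), was 14 bp from Brca2, a DNA repair gene. Those of the Gr93 array lay at 21837416 to 21837978 (7.02 ± 1.15; SD, n = 3), 21838215 to 21838528 (5.62 ± 0.288) and 21838947 to 21839547 (9.33 ± 0.919). Each was 3189 bp or more from the nearest boundary, so no Gr93 gene counts as bound. A similar group of 3 regions stood beyond Ir94h, 6982, 7278 and 7780 bp from it, with mean folds of 8.28 ± 2.28, 10.5 ± 1.52 and 8.52 ± 2.10. Across the genome, 14 regions of all 3 libraries (0.243% of 5768) had the boundary of a receptor gene as their nearest gene boundary. Receptor genes are 179 of the 17807 genes of all types whose boundaries were compared. These receptor genes were Gr39a, Gr47b, Ir48c, Ir52a, Or67a, Ir85a, Gr93a, Gr93b and Ir94h. A nearest boundary is not the same as a nearest gene: the region of Ir48c lay inside ths and those of Ir85a inside Pif1A and Pif1B. Of these 14 regions, 9 had their centre outside all annotated genes, and the same share of all 5768 regions is not given.

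Receptor genes were bound at a lower share than other genes both with and without a close neighbour. A protein-coding gene had a boundary within 1000 bp of 118 of 179 receptor genes (65.9%), against 80.5% of all protein-coding genes. Among those with such a neighbour 4 of 118 receptor genes (3.39%) were bound, against 21.2% of protein-coding genes, and among those without one 6 of 61 (9.84%), against 17.9%. The neighbour was often another receptor gene: 70 receptor genes had one within 1000 bp. A protein-coding gene of another kind was that close to 63, of which 3 (4.76%) were bound. Of 33 receptor genes inside another gene 3 were bound (9.09%), against 13.4% of protein-coding genes so placed. Some of the 33, such as Gr64e within Gr64d, lie inside another receptor gene.

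Other genes of smell and taste held a few recurring regions. Odorant-binding protein genes, which encode secreted carriers of odorants, had 3 of 52 bound (5.77%), where the share of all protein-coding genes was 20.6%: Obp28a (7.05 ± 1.80; SD, n = 3), Obp73a (14.3 ± 2.68) and Obp83g (18.0 ± 1.62). The region of Obp28a was nearer to Ziz, 61 bp away, than to Obp28a. Orco and Snmp1, a co-receptor and a membrane protein of olfactory neurons, were not bound, with gaps of 14309 and 12103 bp, while Snmp2 was bound (5.78 ± 1.27). Among 9 other sensory genes, mostly channels, ppk29 and rut were bound (22.2%) and nompC, nan, iav, TrpA1, ppk23, ppk25 and Amt were not. The region of ppk29 (9.69 ± 1.92) was nearer to eEF5, 39 bp away.

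Transcription factor genes that act in olfactory neurons were bound in 3 of 9 cases (33.3%), where the share of all protein-coding genes was 20.6%. They were pdm3 (15.4 ± 0.430; SD, n = 3), sim (13.4 ± 1.43) and the proneural gene ato (6.28 ± 0.774), while acj6, amos, onecut, Fer1 and Xbp1 had no region of all 3 libraries in or near the gene and Eip93F had one inside only. Marker genes of neurons were bound in 3 of 8 cases (elav, brp and Syx1A) and those of sensory organ precursors in 4 of 8 (ac, sc, sens and Brd), with sc at 19.6 ± 1.92. The region of sim was nearer to lncRNA:CR46530 (83 bp) than to sim (162 bp), and that of brp to Wnt2 (347 bp) than to brp (924 bp). That of elav was 677 bp from both elav and lncRNA:enrr. In the gene or its 1000 bp flanks, a region of all 3 libraries lay at 6 of 8 genes (75%) of the neuron list. The same count held for the sensory organ precursor list, against 23.9% of all protein-coding genes. These lists are short and their genes are often long, and no test of a difference from the receptor genes was made.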

How the data were processed

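The data are 3 deposited CUT&Tag peak lists on dm6, 1 per library. Per the submitters' processing notes the tools included Trim Galore, Bowtie2, Bowtie and MACS2; aligner settings, duplicate handling and tool versions, R 4.2.1 apart, are not given in those notes. In the deposited lists every peak has coordinates, a summit, a fold enrichment as a linear ratio, a −log10 p-value and q-value, and a score. In 99.99% of peaks the deposited score equals the −log10 q-value times 10 without its decimals. The lowest deposited −log10 q-value was 2.0, 2.02 and 2.02 in replicates 1, 2 and 3. Folds describe peaks within a library.

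Peaks on 2L, 2R, 3L, 3R, 4, X and Y that overlapped by at least 1 bp were merged with Python 3.11.15 and pandas 2.3.3. The summits of a region were averaged to give its centre, and its fold in a library is that of the highest peak. Gene positions were read from the RefSeq table of Release 6 plus ISO1 MT (17807 genes of all types on these chromosomes), which has no strand, exons or sequence, so the 5′ boundary and the planned motifs were not analysed. Of the names matching the rule, 6 pseudogenes were left out. The code was tested on simulated data with planted peaks. The design has 1 group, so values are means ± SD and no significance test was made. The members, gene lists and length classes were chosen with earlier results of these data known. Named were every receptor gene with a region of all 3 libraries, those with peaks of 1 or 2 libraries, and receptor genes with well known roles; Gr47b, Ir41a, Ir93a, the Gr93 genes, Ir94h, Or23a, Ir11a and Gr92a were named after their values were seen.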

Additional observations from a re-analysis of the deposited data

How the results depend on the processing

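The share of bound receptor genes was below that of all protein-coding genes under each of 11 alternatives, between 0.104 and 0.336 of it (0.272 as reported). The count of bound receptor genes, 10 as reported, fell to 3 (1.68%) with windows of 500 bp, where the share of all protein-coding genes was 16.0%. It fell to 4 (2.23%) with peaks above the median fold of their library, where that share was 13.2%. With regions of at least 1 library it reached 20 (11.2%), where that share was 33.3%. In these settings the genes whose region was nearer to or inside another gene, 8 as reported, numbered 2, 4 and 14. Receptor genes with a peak, 14.3 per library as reported, averaged 6.33 with windows of 500 bp, 21.7 with windows of 2000 bp and 7 with peaks above the median fold. The mean share of all protein-coding genes, 26.8% as reported, was 21.3%, 33.5% and 17.6% in these settings. Without flanks, 2 receptor genes held a region of all 3 libraries, against 10 with them, where the shares of all protein-coding genes were 16.1% and 23.9%. These settings differ from the reported one in the area searched, the peaks admitted or the libraries asked for. Leaving out 1 replicate in turn gave 10 to 12 bound receptor genes, 8 to 10 nearer to or inside another gene, 14 to 14.5 per library, and 10 to 13 with flanks. The shares of all protein-coding genes were then 21.9% to 23.1% bound, 26.5% to 27.4% per library and 25.4% to 26.4% with flanks. Leaving out a replicate asks for 2 libraries in place of 3, which is the looser rule, so the receptor counts do not show stability. With a −log10 q-value of at least 5 there were 9 bound receptor genes (5.03%), Gr39a being lost, where the share of all protein-coding genes was 18.8%. The 5′ boundary alternative was not run, since the gene table has no strand. No paired analysis was possible because the design has 1 group. Unknown depth limits what the absence of a peak shows.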

Other observations

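Fold values recurred in steps. The commonest fold in each library was 10 times a step of 0.499, 0.518 and 0.511 in replicates 1, 2 and 3, and 32.0%, 31.4% and 32.3% of all peaks were whole multiples of that step within 0.002 of a step. Of 50 fold values at receptor gene boundaries 36 (72%) were such multiples. In regions of all 3 libraries these were 20 of 33 values, from 10 to 32 steps with a median of 15. In regions of 1 or 2 libraries they were 16 of 17 values, from 7 to 19 steps with a median of 11. Equal folds at different genes, such as the 5.48 of Or67a, Ir68a, Ir31a and Ir94f in replicate 1, are 11 steps each. What 1 step stands for in reads is not given in the peak lists.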
